A study of Rattus norvegicus with 54 samples.

Results

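The cardiomyocyte stretch-response and Z-disc genes described here were 10 genes taken by symbol from the 40319 genes listed in the count files: Ankrd1, Ankrd2, Ankrd23, Xirp1, Xirp2, Csrp3, Fhl1, Fhl2, Flnc and Des. All 10 were found in the counts of each of the 54 libraries. The libraries were made from polyadenylated RNA of the left ventricle of 18 female athymic F344/NJcl-rnu/rnu rats, which lack T cells, were 8 weeks old at surgery and were studied 1 week afterwards. Of these, 6 rats had a sham operation, 6 had a myocardial infarction (MI) made by tying the left anterior descending coronary artery, and 6 had the same infarction covered by a cell sheet. The sheet held human endothelial progenitor cells and human smooth muscle cells in separate layers, without a scaffold, and lay on the epicardium over the ischemic muscle. Every heart gave tissue from the infarct, border and remote zones (in sham hearts, the matching positions), so that there were 9 groups of 6 libraries. The labels number the 6 libraries of a group as technical replicates, whereas the methods describe separate animals, so p-values measure the spread between these libraries, whatever its source.

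The Z-disc is the plate that anchors actin filaments at each end of a sarcomere, and alpha-actinin-2, encoded by Actn2, is its main cross-linker. Around this plate and along the titin filament sit proteins that bear load, and others that move to the nucleus when the muscle cell is stretched and alter transcription there. Ankrd1 (CARP) is a classical early marker of cardiac stretch and overload, and its transcription is known to respond to YAP/TEAD and to other load-sensitive factors. Levels were expressed as CPM, read counts scaled to a common library size after TMM normalisation, and differences as log2 fold changes from edgeR with their SE. A gene was called where the adjusted p was under 0.05.

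The 250 bases before annotated transcription starts (RefSeq, rat assembly GRCr8) are shown for 4 members whose levels carry the results below: Ankrd23, which rose after infarction, Xirp1 and Fhl2, which fell, and Xirp2, which did neither. A window was found for 8 of the 10 members, in 12 windows, and none was used for Ankrd1 and Csrp3. Capitals mark, on either strand, the TEAD-binding core CATTCC, the SRF-binding CArG box or the MEF2 box.
Ankrd23, chr9:46274511-46274760, minus strand: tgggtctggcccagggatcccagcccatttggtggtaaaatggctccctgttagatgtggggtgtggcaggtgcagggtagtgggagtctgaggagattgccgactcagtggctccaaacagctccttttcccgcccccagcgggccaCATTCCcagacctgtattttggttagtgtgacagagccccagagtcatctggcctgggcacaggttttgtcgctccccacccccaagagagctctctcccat
Xirp1, chr8:128635004-128635253, minus strand: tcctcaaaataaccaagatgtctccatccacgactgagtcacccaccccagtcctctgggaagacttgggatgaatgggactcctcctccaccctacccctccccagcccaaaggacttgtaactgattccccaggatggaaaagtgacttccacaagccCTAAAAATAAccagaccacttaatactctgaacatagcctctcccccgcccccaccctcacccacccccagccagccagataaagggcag
Xirp2, chr3:72533936-72534185, plus strand: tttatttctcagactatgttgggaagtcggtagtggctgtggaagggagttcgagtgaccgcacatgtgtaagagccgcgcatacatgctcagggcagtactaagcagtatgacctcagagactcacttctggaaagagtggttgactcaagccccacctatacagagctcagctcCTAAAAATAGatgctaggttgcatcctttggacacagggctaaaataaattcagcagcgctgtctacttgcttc
Fhl2, chr9:52954541-52954790, minus strand: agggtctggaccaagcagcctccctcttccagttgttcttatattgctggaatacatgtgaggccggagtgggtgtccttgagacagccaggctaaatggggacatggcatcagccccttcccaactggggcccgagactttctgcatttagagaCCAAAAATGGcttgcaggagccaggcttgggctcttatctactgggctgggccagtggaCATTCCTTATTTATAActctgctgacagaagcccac
The Ankrd23 window holds 1 CATTCC, which begins 102 bases before the start. The Xirp1 and Xirp2 windows each hold a MEF2 box, 90 and 74 bases before the start. In the Fhl2 window a CArG box lies 95 bases before the start, and a CATTCC at 36 bases is followed directly by a MEF2 box at 30 bases. CATTCC was present in 3 of the 12 member windows and in 12.1% of all 33469 windows, the CArG box in 3 of 12 and 1.5%, and the MEF2 box in 4 of 12 and 2.96%. Counted by gene, CATTCC was present in 3, the CArG box in 2 and the MEF2 box in 3 of the 8 members with a window. Overlapping Xirp1 windows hold the same MEF2 box, 90 and 82 bases before their starts. The windows of a gene are thus not separate, and a match describes the letters only.

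Libraries held 12699204 to 23397754 counts on genes. Actn2 and 7 other cardiomyocyte genes (Tnnt2, Tnni3, Tnnc1, Myl3, Myh6, Mybpc3 and Ryr2) served as a reference for cardiomyocyte RNA. Their summed level in the infarct zone was 17235 to 54889 CPM in sham (median 47898), 2113 to 26988 CPM in MI (median 8098) and 542 to 23937 CPM in cell sheet hearts (median 1756). In bulk tissue, fewer cardiomyocytes and less RNA per cardiomyocyte cannot be told apart. Animals of 2 groups stood apart: sham replicate 5 had the lowest reference sum of its group in each zone, with macrophage markers summing to 1697 CPM at the infarct position against a group median of 294 CPM, and cell sheet replicate 1 had a reference sum of 112 CPM at the border, where its Actn2 was 4.55 CPM against 266 to 1040 CPM in the other 5 libraries. Values without them are given where they change a result.

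**Figure D1:**
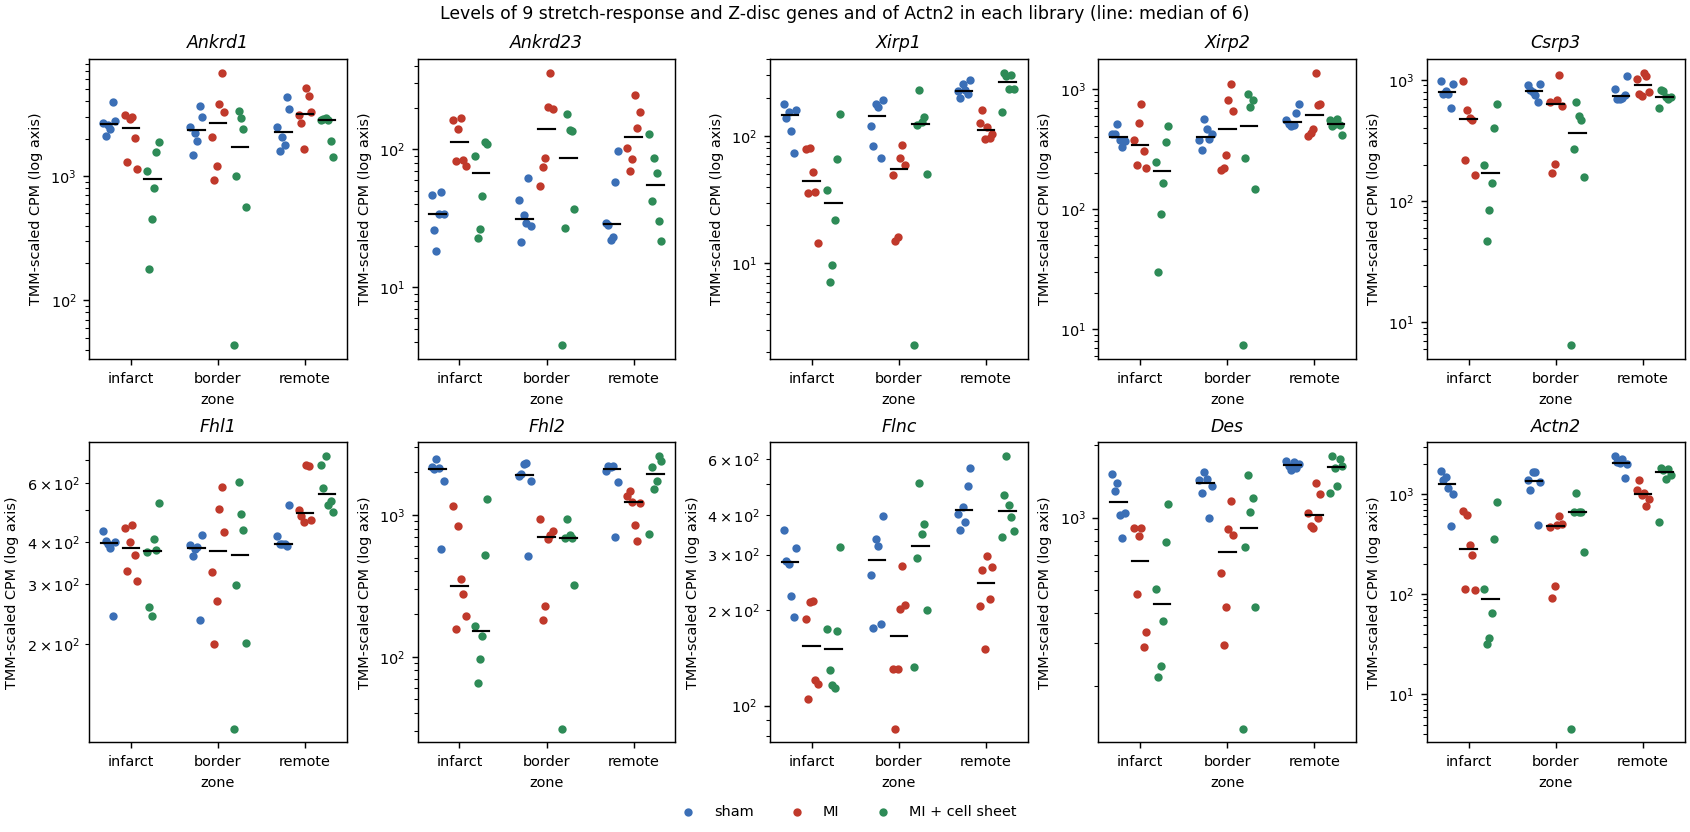
CPM (log axis) of each member except Ankrd2, and of Actn2, in every library, by zone and treatment, with 1 point per library and a bar at the group median. Ankrd23 lies higher in MI than in sham hearts in each zone, whereas Fhl2, Xirp1, Des and Actn2 lie lower.

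Of the 9 members that could be tested, 1 rose and 4 fell in the infarct zone of MI hearts relative to sham, 1 rose and 3 fell at the border, and 2 rose and 3 fell in the remote zone. Among all genes tested, 49.9% were called in the infarct zone (22.7% higher and 27.2% lower), 41.7% at the border (18.4% higher and 23.2% lower) and 25.8% in the remote zone (11.7% higher and 14.2% lower). The median log2 change of the members was -0.75, -0.52 and 0.22 in the 3 zones, beside -0.02, -0.02 and -0.04 for all genes. The remaining member, Ankrd2, a titin-binding ankyrin repeat protein known mainly from skeletal muscle, had 0 to 24 counts per library and fell under the filter on low counts in every comparison. Its highest count, 24, was in the infarct zone of cell sheet replicate 6, where 10 skeletal muscle markers summed to 459 CPM against a group median of 60.8 CPM, and the part of that tissue in the value was not tested.

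Among the muscle ankyrin repeat proteins, which bind titin at the I-band and shuttle to the nucleus, Ankrd23 (DARP) had the steepest rise of any member. In the infarct zone it was at 18.4 to 48.7 CPM in sham (median 33.9) and at 75.3 to 169.8 CPM in MI hearts (median 112.6), so that the groups did not overlap. The difference was 1.78 ± 0.29 (log2, SE; adjusted p = 0.000747). At the border it was at 21.3 to 61.7 CPM in sham (median 31.4) and 53.7 to 359 CPM in MI hearts (median 140.2), a difference of 2.16 ± 0.45 (adjusted p = 0.00441). There, 1 MI library lay inside the sham range. In the remote zone, the sham libraries spanned 22.0 to 96.8 CPM (median 28.8) and the MI libraries 69.4 to 249 CPM (median 122.1), with overlap, and the difference was 1.69 ± 0.42 (adjusted p = 0.0116). No single library that was left out ended any of these calls.

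Ankrd1, the family member best known as load-induced, was called in none of the 3 comparisons. It was at 2106 to 3910 CPM in sham (median 2636) and 1131 to 3078 CPM in MI hearts (median 2438) in the infarct zone, a difference of -0.30 ± 0.28 (adjusted p = 0.387). At the border, sham hearts had 1468 to 3666 CPM and MI hearts 928 to 6774 CPM (0.28 ± 0.44, adjusted p = 0.624). Remote tissue ranged over 1592 to 4285 CPM in sham and 1656 to 5135 CPM in MI hearts (0.36 ± 0.30, adjusted p = 0.401). MI and sham groups overlapped in every zone. The highest sham value of Ankrd1 was that of replicate 5 in each zone, the animal with the least Actn2.

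The Xin repeat proteins bind actin filaments at the intercalated disc and at sites of myofibril damage and growth, and the 2 members differed. Xirp1 fell in each zone of MI hearts. It was at 73.5 to 177 CPM in sham (median 145) and 14.5 to 80.4 CPM in MI hearts (median 44.3) in the infarct zone, a difference of -1.44 ± 0.36 (adjusted p = 0.00710), with overlap only through the lowest sham library, replicate 5. At the border, the ranges were 67.3 to 190.5 CPM and 14.9 to 84.3 CPM (-1.47 ± 0.44, adjusted p = 0.0191). Remote tissue, at 198 to 273 CPM in sham and 95.0 to 159 CPM in MI hearts, showed no overlap (-0.998 ± 0.13, adjusted p = 0.000750). Xirp2 was called in no zone. Its medians in sham and MI hearts were 402 and 342 CPM (infarct), 404 and 472 CPM (border) and 535 and 609 CPM (remote). The differences, -0.02 ± 0.28, 0.38 ± 0.40 and 0.28 ± 0.27, had adjusted p-values of 0.957, 0.454 and 0.482.

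The LIM-domain members likewise diverged. Fhl2, a four-and-a-half LIM protein that tethers metabolic enzymes to titin and acts as a transcriptional cofactor, fell most steeply of the members in the infarct and border zones. In the infarct zone it was at 578 to 2485 CPM in sham (median 2123) and 157 to 1156 CPM in MI hearts (median 317), a difference of -1.91 ± 0.52 (adjusted p = 0.0102). At the border the ranges were 513 to 2311 CPM and 183 to 934 CPM (-1.61 ± 0.45, adjusted p = 0.0144). In both zones the groups overlapped only because of sham replicate 5, which held the lowest sham value. Remote tissue had 698 to 2220 CPM of Fhl2 in sham and 654 to 1471 CPM in MI hearts (-0.70 ± 0.27, adjusted p = 0.0719), and without sham replicate 5 the fall was called (-0.87, adjusted p = 0.00134).

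Fhl1, a related protein of the titin spring region that takes part in hypertrophic signalling, did not fall with Fhl2. In the infarct zone its 6 sham libraries were at 242 to 431 CPM (median 398) and its MI libraries at 307 to 452 CPM (median 384), a difference of 0.03 ± 0.15 (adjusted p = 0.902). The border gave 0.08 ± 0.24 (adjusted p = 0.811). Fhl1 rose in the remote zone, where sham libraries were at 390 to 515 CPM and MI libraries at 459 to 678 CPM (0.37 ± 0.13, adjusted p = 0.0483), with overlapping groups. Leaving out any of 6 libraries (MI replicates 4 and 5, sham replicates 1 to 4) ended that call, at adjusted p-values of 0.0864 to 0.114. Csrp3 (muscle LIM protein), a Z-disc protein held to take part in stretch sensing, was called in no zone, at -0.75 ± 0.36, -0.52 ± 0.38 and 0.22 ± 0.15 (adjusted p = 0.0989, 0.288 and 0.322). Without MI replicate 1, the highest MI library at 975 CPM beside 164 to 565 CPM in the others, Csrp3 was called lower in the infarct zone (-1.08, adjusted p = 0.0114).

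Flnc (filamin C), which links the Z-disc to the membrane and is turned over under strain, and Des (desmin), the intermediate filament that ties neighbouring Z-discs together, both fell. Flnc was at 190.0 to 359 CPM in sham and 105 to 215 CPM in MI hearts in the infarct zone (-0.79 ± 0.22, adjusted p = 0.0112), and at 359 to 564 CPM and 151 to 297 CPM in the remote zone, where the groups did not overlap (-0.90 ± 0.17, adjusted p = 0.00292). At the border Flnc was not called (-0.70 ± 0.29, adjusted p = 0.0699), but it was without MI replicate 5 (-0.89, adjusted p = 0.0275) or without sham replicate 5 (-0.79, adjusted p = 0.0297). The log2 change of Des was -0.91 ± 0.31, -0.93 ± 0.29 and -0.60 ± 0.12 in infarct, border and remote tissue (adjusted p = 0.0262, 0.0238 and 0.00431). Its 6 sham libraries of the remote zone lay within 1570 to 1709 CPM and the MI libraries between 905 and 1391 CPM, with no overlap. The Des call of the infarct zone was lost without any of 4 libraries (MI replicates 2 and 6, sham replicates 1 and 3; adjusted p = 0.0529 to 0.0569), and that of the border without MI replicate 3 (adjusted p = 0.0519). With all 9 groups in a single edgeR fit, which shares 1 estimate of spread, the remote zone calls of Des and Xirp1 were not made (adjusted p = 0.227 and 0.183) and that of Flnc was. Smooth muscle, in which Des and Flnc are also expressed, was a second possible source of these transcripts. Its 7 markers summed to 176 to 330 CPM in sham and 366 to 1915 CPM in MI hearts in the infarct zone. There, 6 of the markers were called higher in MI hearts and 1, Smtn, lower. In the remote zone 4 were called higher and 1, Myh11, lower. The part of those cells in the levels of Des and Flnc was not tested.

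**Figure D2:**
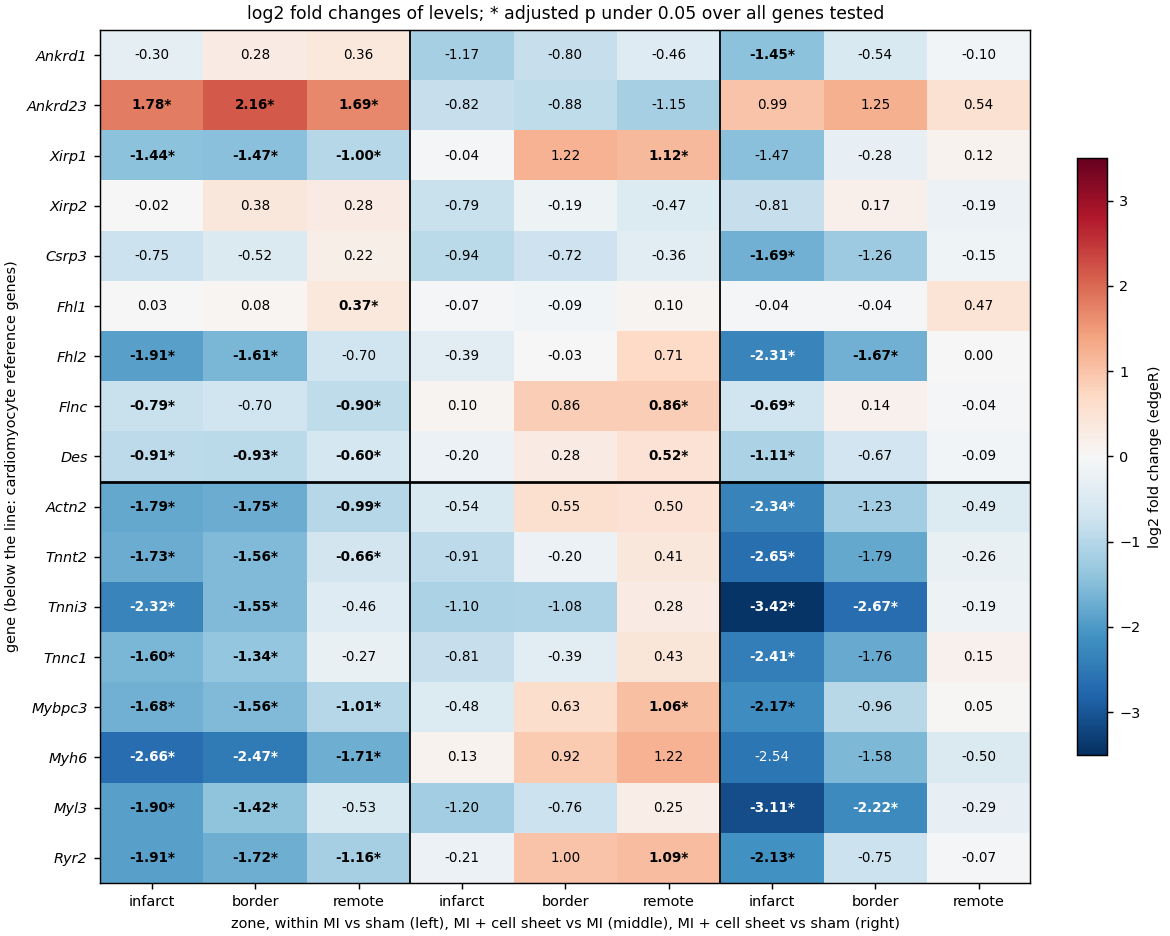
Log2 fold change (colour scale and printed value) of the 9 tested members, above the line, and of the 8 cardiomyocyte reference genes, below it, for the 3 treatment comparisons in the 3 zones. Asterisks mark adjusted p under 0.05 in edgeR. Ankrd23 is the member with a called rise in all 3 zones of MI hearts, and Xirp1, Flnc and Des are the members with a called rise in cell sheet against MI hearts, in the remote zone.

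To set the members against cardiomyocyte RNA, each was divided by Actn2 in the same library and the log2 ratios were compared by an exact permutation test, two-sided, adjusted over all genes. Actn2 itself was at 481 to 1703 CPM in sham and 111 to 673 CPM in MI hearts in the infarct zone (-1.79 ± 0.48, adjusted p = 0.00940), and changed by -1.75 ± 0.47 at the border (adjusted p = 0.0122) and by -0.99 ± 0.16 in remote tissue (adjusted p = 0.00159). Relative to Actn2, 7 of the 9 members rose in the infarct zone of MI hearts, the same number at the border and 5 in the remote zone. Since Actn2 fell, most genes of any kind rose in this ratio: 86.2%, 88.4% and 82.3% of all genes tested were called higher. The median log2 change in ratio was 1.22, 1.23 and 1.15 for the members and 2.04, 1.97 and 0.98 for all genes, so that the members lay below all genes in the infarct and border zones and above them in the remote zone.

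Among the 23 other Z-disc genes described below, 12, 17 and 14 rose relative to Actn2 in the infarct, border and remote zones, and 0 fell. Within the cardiomyocyte reference genes, such a rise was not general in the infarct and border zones. Of the 7 other reference genes, 0 rose relative to Actn2 in the infarct zone by this test (2 fell, Myh6 at -1.36 and Tnni3 at -0.89 on the log2 scale, and the other 5 lay between -0.35 and 0.08), 2 rose at the border (Tnnc1 by 0.36 and Mybpc3 by 0.23) and 4 in the remote zone (Tnnc1 by 0.74, Tnni3 by 0.61, Myl3 by 0.50 and Tnnt2 by 0.37). The ratio of Ankrd23 to Actn2 in the infarct zone was 1.23% to 10.1% in sham and 22.6% to 71.7% in MI hearts, with no overlap, a rise of 3.81 ± 0.52 (log2, SE; exact permutation p = 0.00216, the smallest that 6 against 6 libraries allow). Fhl1 relative to Actn2 went from 25.3% to 50.4% in sham to 64.3% to 289% in MI hearts, again with no overlap (2.07 ± 0.42, exact permutation p = 0.00216). Ratios without overlap were not counted over all genes, of which 86.2% were called higher in this zone. Xirp2 and Ankrd1, which were not called as levels, rose by 1.89 ± 0.40 and 1.66 ± 0.44 in ratio (exact permutation p = 0.00433 and 0.0108). Flnc, Csrp3 and Des rose by 1.22 ± 0.36, 1.06 ± 0.25 and 1.00 ± 0.35. The 2 members not called were Xirp1 (0.45 ± 0.25) and Fhl2 (-0.14 ± 0.15), the members that had fallen most as levels. The Des call was lost without sham replicate 1, 2, 3 or 4 (exact permutation, adjusted p = 0.0534 to 0.0584). In cell sheet replicate 1 at the border, a library with almost no Actn2, the log2 ratios of Fhl1, Flnc and Des were 4.59, 4.84 and 4.84. The part of other cells in the levels and ratios of these genes was not tested.

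At the border the same order held at its ends. Ankrd23 rose by 3.89 ± 0.61 relative to Actn2, Xirp2 by 2.07 ± 0.43, Ankrd1 by 1.99 ± 0.46, Fhl1 by 1.97 ± 0.33, Flnc by 1.23 ± 0.36, Csrp3 by 1.17 ± 0.25 and Des by 0.90 ± 0.29, while Xirp1 (0.31 ± 0.17) and Fhl2 (0.26 ± 0.16) were not called. Without sham replicate 6, Xirp1 was (0.40, exact permutation, adjusted p = 0.0411). In the remote zone, Ankrd23 (2.78 ± 0.55), Ankrd1 (1.37 ± 0.43), Fhl1 (1.36 ± 0.22), Csrp3 (1.21 ± 0.24) and Xirp2 (1.15 ± 0.38) rose, and for Ankrd23, Fhl1 and Csrp3 the sham and MI ratios did not overlap. Ratios without overlap were not counted over all genes, of which 82.3% were called higher in that zone. There, Flnc, Des, Fhl2 and Xirp1 were at 0.09 ± 0.25, 0.38 ± 0.20, 0.34 ± 0.21 and -0.01 ± 0.13, and Des was called without MI replicate 2 (0.52, exact permutation, adjusted p = 0.0201). The ratio depended on the reference: with Tnnt2 in place of Actn2, Ankrd1 and Xirp2 were no longer called in the remote zone (1.00 and 0.78 on the log2 scale, exact permutation with adjusted p = 0.106 and 0.124). Sham replicate 5 held the highest sham ratio of Ankrd1 in every zone (297% of Actn2 in the remote zone against 75.6% to 170% in the others).

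**Figure D3:**
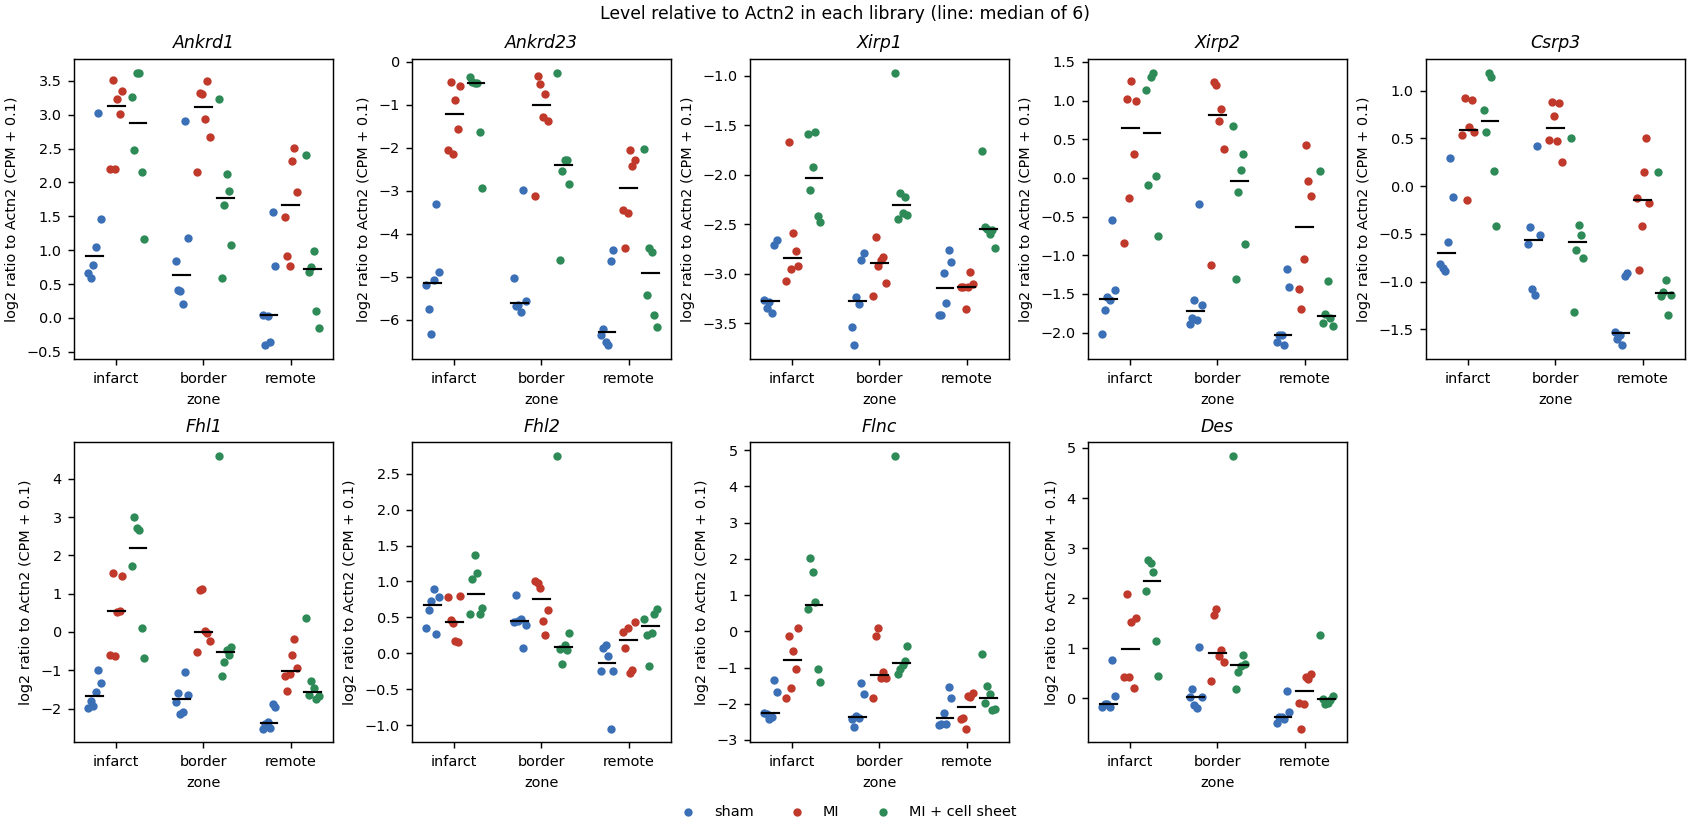
Log2 ratio of each member except Ankrd2 to Actn2 in the same library, with 1 point per library, by zone and treatment, and a bar at the group median. The MI libraries lie above the sham libraries without overlap for Ankrd23 and Fhl1 in the infarct zone, and Fhl2 and Xirp1 show broad overlap there.

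The effect of the cell sheet on these genes was then examined against untreated MI hearts. In the infarct zone 0 of 9 members were called by edgeR and 0 by DESeq2 (0% of all genes by edgeR). At an unadjusted p under 0.05, 1341 genes passed, among them 1 member: Ankrd1, at 179 to 1872 CPM in cell sheet hearts (median 942) and 1131 to 3078 CPM in MI hearts, a difference of -1.17 ± 0.49 (unadjusted p = 0.0339, adjusted p = 0.561). The other 8 members differed by -0.94 to 0.10, with SEs of 0.19 to 0.76, and all groups overlapped. At the border, again 0 of 9 members were called by edgeR and 0 by DESeq2 (18.0% of all genes by edgeR), and Flnc was the 1 member at an unadjusted p under 0.05. It was at 133 to 507 CPM in cell sheet hearts and 84.5 to 277 CPM in MI hearts (0.86 ± 0.34, adjusted p = 0.0965). Without cell sheet replicate 1, the library with almost no Actn2, 2 members were called at the border, both higher with the sheet: Flnc (1.03, adjusted p = 0.0346) and Xirp1 (1.48, adjusted p = 0.0496, from 1.22 with all libraries), where 18.8% of all genes were called in either direction. Adipocyte markers summed to 0.728 to 605 CPM with the sheet (median 237) and 0.0600 to 34.2 CPM in MI hearts (median 1.01) at the border, where Plin1, Cidec and Pck1 of that list and the smooth muscle gene Myh11 were called higher with the sheet. The part of either tissue in the members' levels was not tested.

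Of the 9 members, 3 rose with the cell sheet in the remote zone and 0 fell, where 10.3% of all genes rose. Flnc was at 340.2 to 615 CPM with the sheet (median 413) and 151 to 297 CPM in untreated MI hearts (median 244), without overlap, a difference of 0.86 ± 0.18 (adjusted p = 0.0116). Xirp1 was at 155 to 314 CPM against 95.0 to 159 CPM, with 1 library of each group in the overlap (1.12 ± 0.18, adjusted p = 0.00610). Des was at 1267 to 1799 CPM against 905 to 1391 CPM, with overlap (0.52 ± 0.15, adjusted p = 0.0367). Against sham hearts, Xirp1, Flnc and Des had been at -0.998, -0.90 and -0.60 in the MI hearts of this zone, a comparison that shares the MI libraries with this one. The Des call was lost without any of 8 libraries (cell sheet replicates 2, 3, 5 and 6, MI replicates 1, 2, 3 and 5), at adjusted p-values of 0.0583 to 0.0852, whereas those of Flnc and Xirp1 were kept whichever library was left out. In the single fit of all 9 groups, Flnc was called and Xirp1 and Des were not (adjusted p = 0.148 and 0.325). Actn2 differed by 0.50 ± 0.26 (adjusted p = 0.178). The 7 smooth muscle markers summed to 473 to 1182 CPM with the sheet (median 649) and 303 to 574 CPM in MI hearts (median 473) there, and 2 of them, Myh11 and Lmod1, rose, the same direction as Flnc and Des. The part of smooth muscle in these levels was not tested.

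Ankrd23 and Fhl2 moved apart in that zone without being called. Ankrd23 was at 21.7 to 129 CPM with the sheet (median 54.7) and 69.4 to 249 CPM in MI hearts, a difference of -1.15 ± 0.43 (adjusted p = 0.0754). Its highest cell sheet library was replicate 1, whose Actn2, 528 CPM, lay below the 1428 to 1818 CPM of the other 5, and whose fibroblast markers summed to 33787 CPM against a group median of 4315 CPM. Without this library, 5 members were called, beside 41.6% of all genes: Ankrd23 fell by 1.51 on the log2 scale (adjusted p = 0.00690), Fhl2 rose by 0.87 (adjusted p = 0.00568; 0.71 ± 0.29 with all libraries), and Xirp1, Flnc and Des rose as before. The remaining members, Ankrd1, Xirp2, Csrp3 and Fhl1, differed by -0.46 ± 0.28, -0.47 ± 0.27, -0.36 ± 0.15 and 0.10 ± 0.15.

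Relative to Actn2, 0 of 9 members were called between cell sheet and MI hearts in any zone by the exact permutation test (0% of all genes in each zone), and 0 by limma. At an unadjusted p under 0.05, 1 member of 260 genes passed in the infarct zone, 3 of 103 at the border and 3 of 2382 in the remote zone. Xirp1 was the member with the most distinct ratios. At the border it was at 18.3% to 50% of Actn2 with the sheet and 10.7% to 16.0% in MI hearts, and in the remote zone at 14.96% to 29.5% against 9.75% to 12.7%, with no overlap in either. The differences were 0.82 ± 0.25 and 0.68 ± 0.15 on the log2 scale (exact permutation p = 0.00216 for each, adjusted p = 1 and 0.234). Csrp3 relative to Actn2 was lower with the sheet at the border (-1.14 ± 0.26, exact permutation p = 0.00866, adjusted p = 1), as it was in remote tissue (-0.77 ± 0.29, exact permutation p = 0.0346, adjusted p = 0.312). Without cell sheet replicate 1, 6 members were called in the remote zone: Ankrd1 (-1.17), Ankrd23 (-2.24), Xirp2 (-1.06), Csrp3 (-0.99) and Fhl1 (-0.64) were lower and Xirp1 (0.55) was higher, at exact permutation adjusted p-values of 0.0155 to 0.0419. In that fit 64.0% of all genes were called, 9669 of them lower and 249 higher relative to Actn2, so that the members' calls lay near the background.

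Cell sheet hearts were also compared with sham hearts, the same sham libraries as above. In the infarct zone 5 members fell and 0 rose, where 29.2% of all genes fell. Ankrd1 was at 179 to 1872 CPM with the sheet and 2106 to 3910 CPM in sham hearts, without overlap (-1.45 ± 0.45, adjusted p = 0.0171). Fhl2 (-2.31 ± 0.72), Csrp3 (-1.69 ± 0.52), Des (-1.11 ± 0.39) and Flnc (-0.69 ± 0.26) fell with overlapping groups (adjusted p = 0.0166, 0.0162, 0.0278 and 0.0417). The Flnc call was lost without any of 9 libraries, cell sheet replicates 1 to 5 and sham replicates 1, 2, 3 and 6 (adjusted p = 0.0671 to 0.0895), and the Des call without any of 4, cell sheet replicates 1 and 4 and sham replicates 1 and 3 (adjusted p = 0.0530 to 0.0605). Without TMM factors, Des (-0.84, adjusted p = 0.0618) and Flnc (-0.41, adjusted p = 0.148) were not called. Ankrd23 was not called (0.99 ± 0.41, adjusted p = 0.0545), but it was without cell sheet replicate 2 (1.17, adjusted p = 0.0213), cell sheet replicate 3 (1.12, adjusted p = 0.0341) or sham replicate 5 (1.08, adjusted p = 0.0443). Xirp1 (-1.47 ± 0.64, adjusted p = 0.0644) and Xirp2 (-0.81 ± 0.50, adjusted p = 0.179) were called without cell sheet replicate 6 (-2.25, adjusted p = 0.00343, and -1.18, adjusted p = 0.0481), the library with the most Actn2 of its group, and Xirp1 also without sham replicate 5 (-1.61, adjusted p = 0.0449). Fhl1 differed by -0.04 ± 0.21. Skeletal muscle markers in this zone summed to 459 CPM in cell sheet replicate 6 and 246 CPM in replicate 2, against 32.3 to 65.4 CPM in the other cell sheet libraries. They summed to 115 CPM in sham replicate 5, against a sham median of 19.5 CPM. The part of that tissue in the members' levels was not tested.

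At the border, Fhl2 was the 1 member called of 9, at 31.1 to 942 CPM with the sheet and 513 to 2311 CPM in sham hearts (-1.67 ± 0.60, adjusted p = 0.0408), where 23.2% of all genes fell. That call was lost without any of 9 libraries, cell sheet replicates 2, 4, 5 and 6 and sham replicates 1, 2, 3, 4 and 6 (adjusted p = 0.0568 to 0.0853). Without cell sheet replicate 1, Ankrd23 (1.51, adjusted p = 0.0235) and Csrp3 (-1.00045, adjusted p = 0.0224) were called as well, beside 39.4% of all genes. Csrp3 was at 6.48 to 655 CPM with the sheet and 656 to 926 CPM in sham hearts, without overlap, but at -1.26 ± 0.66 (adjusted p = 0.140) with all libraries. In this zone 6 adipocyte markers summed to 0.728 to 605 CPM in cell sheet hearts (median 237 CPM) and 0.0720 to 1.17 CPM in sham hearts, and the part of fat tissue in the members' levels was not tested.

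In the remote zone, 0 of 9 members were called between cell sheet and sham hearts by edgeR, beside 1 of 15157 genes (0.00660%). At an unadjusted p under 0.05, 1520 genes and 1 member passed. The member was Fhl1, at 491 to 721 CPM with the sheet and 390 to 515 CPM in sham hearts, a difference of 0.47 ± 0.13 (adjusted p = 0.245), and DESeq2 called it (adjusted p = 0.0354). The other 8 members differed by -0.19 to 0.54 on the log2 scale, with SEs of 0.12 to 0.48. Xirp1, Flnc and Des, lower in MI hearts, were at 0.12 ± 0.15, -0.04 ± 0.16 and -0.09 ± 0.12.

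As ratios to Actn2, 8 members were higher with the sheet than in sham hearts in the infarct zone, 5 at the border and 2 in the remote zone, beside 92.9%, 35.7% and 23.2% of all genes. In the infarct zone the exception was Fhl2 (0.27 ± 0.17), while Ankrd23 (4.02 ± 0.59), Fhl1 (3.18 ± 0.65) and Xirp1 (1.09 ± 0.21) did not overlap between the groups. Ratios without overlap were not counted over all genes in any zone. The smaller rise of Ankrd1 (1.45 ± 0.55) was lost as a call without cell sheet replicate 1, 3 or 4 or sham replicate 1, 2, 3 or 4 (exact permutation, adjusted p = 0.0544 to 0.0637). At the border Ankrd23 (2.65 ± 0.72), Flnc (2.23 ± 0.98), Fhl1 (1.93 ± 0.90), Xirp2 (1.31 ± 0.39) and Xirp1 (1.14 ± 0.28) were called. In cell sheet replicate 1 of that zone Flnc and Des stood at 2921% and 2918% of Actn2, beside at most 75.5% and 183% in the other 5 cell sheet libraries, and its smooth muscle markers were at the level of the rest of the group (645 to 950 CPM over the 6 libraries). All 5 border calls were lost without sham replicate 1, 2, 3, 4 or 6 (exact permutation, adjusted p = 0.115 to 0.141), fits in which 0% of all genes were called. Those of Ankrd23 and Xirp2 were also lost without cell sheet replicate 1 (0.0646 and 0.0779), where 13.5% of all genes were called. Xirp2 was lost too without cell sheet replicate 4 or 5 (0.0557 and 0.0563), beside 40.4% and 39.8% of all genes called. Without sham replicate 5, Ankrd1 (1.15) and Des (1.31) were called higher in addition (exact permutation, adjusted p = 0.0392 and 0.0416), beside 62.0% of all genes called. Des was called also without cell sheet replicate 2 (1.35, 0.0459), beside 40.3% of all genes. In the remote zone Fhl1 (1.04 ± 0.35) and Xirp1 (0.67 ± 0.18) were called, without overlap. Both calls were lost without sham replicate 1, 2, 4 or 6 (exact permutation, adjusted p = 0.0518 to 0.0643), fits in which 0% of all genes were called. Fhl2 was called there without cell sheet replicate 3 (0.67, exact permutation, adjusted p = 0.0332) and Des without sham replicate 5 (0.57, 0.0293), beside 27.2% and 45.7% of all genes called.

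Whether the infarction effect depended on the zone was tested directly. The MI against sham difference was lower in the infarct than in the remote zone for 2 of the 9 members, Fhl2 (by 1.49 ± 0.44 on the log2 scale, adjusted p = 0.0214) and Csrp3 (by 1.18 ± 0.32, adjusted p = 0.0161), where 15.3% of all genes were called lower in this sense. Csrp3 was at 164 to 975 CPM in the infarct zone of MI hearts and at 732 to 1144 CPM in their remote zone, while its sham libraries were at 587 to 969 and 691 to 1076 CPM. Actn2 itself differed in the same direction without being called (-1.01 ± 0.47, adjusted p = 0.117). Ankrd1 was not called (-0.76 ± 0.35, adjusted p = 0.118) unless MI replicate 3 was left out (-1.03, adjusted p = 0.0169). Between border and remote zone, 0 members and 0 genes (0%) were called by edgeR, with 3995 genes and 1 member, Csrp3 (-0.998, adjusted p = 0.114), at an unadjusted p under 0.05, and Csrp3 was called without MI replicate 5 (-1.20, adjusted p = 0.0355). For the effect of the cell sheet, 0 members and 0 genes (0%) were called between infarct and remote and between border and remote, with 4190 and 3430 genes and no member at an unadjusted p under 0.05. An exact permutation test of each animal's zone difference called 0 members in these last 3 comparisons. The 3 calls of Flnc, Xirp1 and Des in the remote zone were thus not shown to differ from the other zones.

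**Figure D4:**
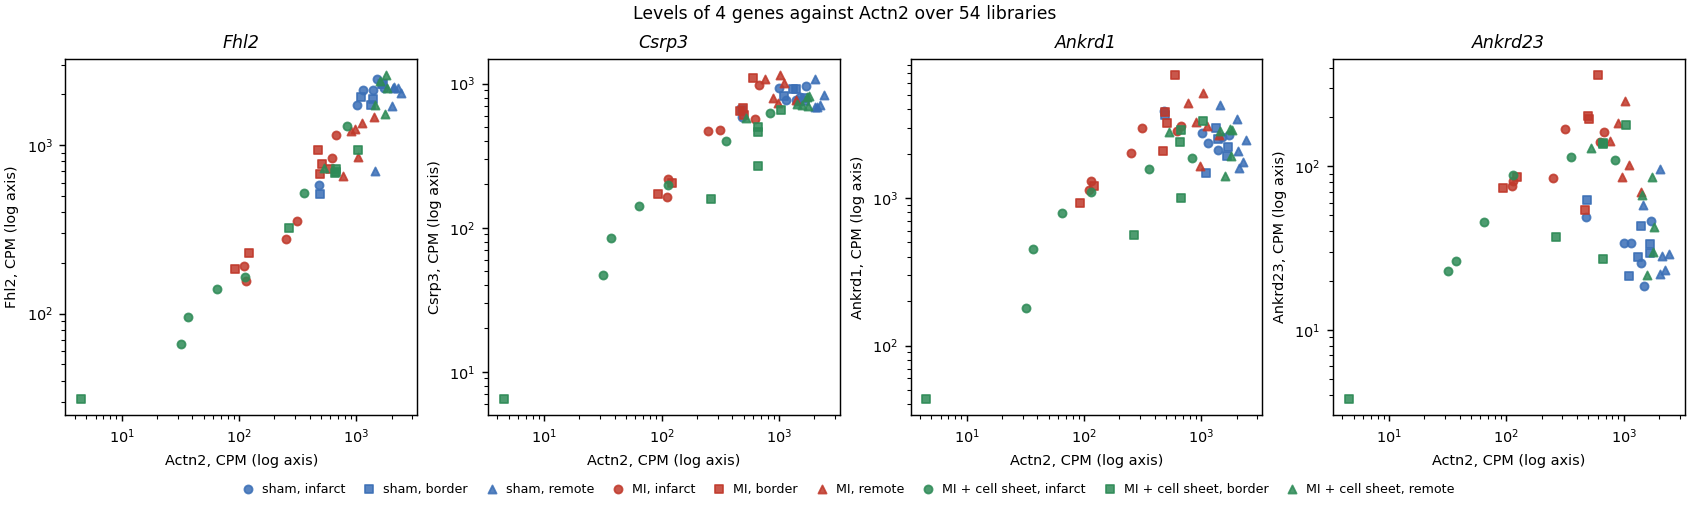
CPM of Fhl2, Csrp3, Ankrd1 and Ankrd23 against CPM of Actn2 (log axes) over the 54 libraries, with colours for treatment and shapes for zone. Fhl2 (Pearson's r of log2 CPM, 0.967) lies close to a line with Actn2, whereas Ankrd23 (0.125) does not.

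Over the 54 libraries, which share animals, zones and treatments, the correlation of log2 CPM with Actn2 was 0.967 for Fhl2, 0.963 for Xirp1, 0.948 for Des and 0.918 for Csrp3, then 0.793 for Xirp2, 0.776 for Flnc, 0.763 for Ankrd1 and 0.676 for Fhl1. For Ankrd23 it was 0.125. Among the members, Ankrd1 followed Xirp2 (r = 0.935) and Csrp3 (r = 0.926), and Xirp1 followed Des (r = 0.955), as a description. The members ranged between these extremes and did not move as a single block.

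Other genes of the Z-disc and of load-sensitive transcription were read from lists chosen by function. Of 23 other Z-disc genes, 15 fell and 1 rose in the infarct zone of MI hearts, 13 fell and 0 rose at the border, and 10 fell and 1 rose in the remote zone, where 27.2%, 23.2% and 14.2% of all genes fell. The largest falls were in Cmya5 (myospryn, a desmin partner) in the infarct, border and remote zones (-2.04, -1.87 and -1.19 on the log2 scale) and in Ldb3 (Cypher/ZASP) in the infarct zone (-1.88). The rises were in Pdlim7 in the infarct zone (0.34) and Fbxl22 in the remote zone (0.68). With the cell sheet, 8 of the 23 rose in the remote zone relative to MI hearts and 0 fell, beside 10.3% of all genes that rose, with Synpo2 (1.07) and Mypn (myopalladin, an Ankrd1-binding protein, 1.02) highest, and 2 of the 8 reference genes rose with them, Ryr2 (1.09) and Mybpc3 (1.06).

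Of 15 genes of the YAP/TEAD and MRTF/SRF pathways, 5 rose and 3 fell in the infarct zone of MI hearts, 4 rose and 4 fell at the border, and 3 rose and 4 fell in the remote zone. Of all genes, 22.7%, 18.4% and 11.7% rose and 27.2%, 23.2% and 14.2% fell in these zones. The secreted matricellular YAP targets Ccn2 (2.88, 2.495 and 1.62 on the log2 scale) and Ccn1 (1.70, 1.37 and 1.03) rose in each zone, and fibroblasts, a known source of both, had marker sums of 3595 to 5286 CPM in sham and 12246 to 34262 CPM in MI hearts in the infarct zone, a part that was not tested. The cardiomyocyte-expressed cofactor Myocd (-1.48, -1.28 and -0.73) and the factor Tead1 (-1.16, -0.87 and -0.63) fell in each zone. With the sheet, 3 of the 15 rose in the remote zone relative to MI hearts, among them Srf (0.72) and Tead1 (0.64), and 1 fell, Tead4 (-0.43). Of all 15374 genes tested there, 1579 rose and 1044 fell. At the border 3 of the 15 rose, among them Mrtfb (1.29) and Crim1 (0.71), beside 1379 of all 16272 genes. Of 4 load-induced cardiomyocyte genes, Nppa was called higher in the remote zone of MI hearts (2.07, adjusted p = 0.0494) and Nppb, which is induced by stretch together with Ankrd1, was not (0.83, adjusted p = 0.0898). By the likeness of log2 CPM over the 54 libraries, among 13292 genes, those nearest to Ankrd1 were Nppb (r = 0.977), Synpo2l (0.931), Phf24 (0.901), Lmcd1 (0.884) and RGD1563354 (0.883), and those nearest to Xirp2 were Synpo2l (0.960), Phf24 (0.917), Nppb (0.888), LOC102553868 (0.880) and Mfap3l (0.877).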

How the data were processed

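The deposited files gave, per library, raw read counts per gene made by the authors, who aligned reads with STAR 2.5.4 to the rat genome (mRatBN7.2, RefSeq annotation), per the methods and the labels. The counting tool and its strand setting were not given in the sources used here, so overlapping and antisense genes cannot be told apart, and human reads were not analysed. The 5 summary lines of each file, 17.0% to 42.8% of its counts, name no gene and entered neither library sizes nor tests.

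Per zone and pair of treatments, counts were filtered with filterByExpr (minimum count 10) and tested with TMM factors and the quasi-likelihood test of edgeR 4.0.16 in R 4.3.3, with Benjamini-Hochberg adjustment over all genes tested. Zone differences used edgeR with the animal as block. Ratios to Actn2 were log2(CPM + 0.1) differences in exact permutation tests over all 924 splits. limma 3.58.1 and DESeq2 1.42.0 were alternatives, beside other filters, scalings, offsets and references and each library left out. Scripts were tested on simulated data. The text names the 10 members, the reference genes, the called genes of each list with the largest rise and fall (at most 2 each), and the 5 genes nearest to Ankrd1 and to Xirp2. Members and lists were chosen with earlier results of these data known.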

Additional observations from a re-analysis of the deposited data

Results flagged for a closer look

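Each gene's 6 libraries per group were examined for a highest or lowest value whose gap to the nearest other library, as a share of the group's range, exceeded Dixon's critical value, and 34 of 171 such groups held one, where chance gives about 1 in 20. Most came from 2 animals, and all values here are on the log2 scale, of CPM or of the ratio to Actn2.

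Sham replicate 5 was low for Actn2 in the remote zone and at the border (10.50 and 8.93 for CPM), for Fhl2 in the remote, border and infarct zones (9.45, 9.004 and 9.17), for the Fhl2 ratio in the remote zone (-1.05), and for Fhl1 at the border and in the infarct zone (7.88 and 7.92). Its ratio was high for Ankrd1 at the border and in the infarct zone (2.91 and 3.02), for Ankrd23 and Xirp2 at the border (-2.98 and -0.34), and for Des in the remote, border and infarct zones (0.16, 1.02 and 0.77).

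Cell sheet replicate 1 was low for Actn2 in the remote zone and at the border (9.04 and 2.22 for CPM), and at the border also for Xirp1 (1.25), Csrp3 (2.72) and Fhl2 (4.96). Its ratio was high in the remote zone for Xirp1 (-1.76), Xirp2 (0.0866), Csrp3 (0.14), Fhl1 (0.36) and Des (1.26), and at the border for Xirp1 (-0.97), Fhl1 (4.59), Fhl2 (2.75), Flnc (4.84) and Des (4.84).

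The other 4 were single values: a high Xirp1 ratio in MI replicate 2 of the infarct zone (-1.67), a low Xirp2 ratio in MI replicate 1 at the border (-1.13), a low Csrp3 ratio in MI replicate 3 of the infarct zone (-0.14) and a high Fhl1 level in sham replicate 6 of the remote zone (9.01).

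The effect of infarction differed between the infarct and remote zones, by edgeR's test of that difference, for Csrp3 (-1.18 ± 0.32, adjusted p = 0.0161) and Fhl2 (-1.49 ± 0.44, adjusted p = 0.0214). Actn2 was at -1.01 ± 0.47 in the same edgeR test (adjusted p = 0.117).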

How the results depend on the processing

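Values of single members never changed direction where called. Over the alternatives, 1365 of the level values stayed on their side of the threshold, 61 lost and 32 gained a call, and for ratios to Actn2 these numbers were 2216, 184 and 30. Of the mean levels, 1 moved by more than 1 SD: Des in the remote zone of sham hearts, 1647 CPM and 1505 CPM without TMM factors. The cause of these changes was not tested.

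Counts of called levels moved by over 1.5 times as follows. For these alternatives, and for those of ratios and replicate blocks below, no share of all genes is given. A move in them cannot be read as particular to the members. With all 9 groups in a single fit, MI against sham in the remote zone had 2 (5 in the zone's own fit), cell sheet against MI had 1 at the border (0) and 1 in the remote zone (3), and cell sheet against sham at the border had 3 (1). With DESeq2, cell sheet against MI in the remote zone had 5 and cell sheet against sham in the remote zone had 1 (0). Without TMM factors, and without a filter, cell sheet against sham at the border had 0.

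Counts of called ratios moved for cell sheet against sham at the border (5): 3 with Actn2 as an edgeR offset and 0 with limma. In the remote zone (2) they were 0 with that offset, with limma, with the mean of 8 cardiomyocyte genes and with Tnnt2 as reference. For MI against sham in the remote zone, Tnnt2 gave 3 (5).

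Replicate numbers named different rats in each treatment and did not pair them: the correlation of same-numbered libraries ran from -0.684 to 0.555, and at most 2 libraries of a comparison correlated best with their own number. With the number as a replicate block, called levels were 2 for MI against sham at the border (4), 0 for cell sheet against MI in the remote zone (3) and 0 for cell sheet against sham at the border (1), and called ratios for cell sheet against sham by limma were 5 in the infarct zone (8), 0 at the border and 0 in the remote zone.

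With each library left out in turn, called levels ranged for MI against sham from 4 to 6 (infarct), 3 to 5 (border) and 4 to 6 (remote), for cell sheet against MI from 0 to 0, 0 to 2 and 2 to 5, and for cell sheet against sham from 3 to 7, 0 to 3 and 0 to 0. Of all genes, these fits called 42.2% to 64.8%, 31.7% to 60.8% and 17.8% to 46.5% for MI against sham. The shares were 0%, 11.8% to 18.8% and 7.04% to 41.6% for cell sheet against MI. They were 50.3% to 70.0%, 35.9% to 61.6% and 0% to 0.111% for cell sheet against sham. Called ratios, by permutation or limma, ranged for MI against sham from 6 to 7, 7 to 8 and 5 to 6, for cell sheet against MI from 0 to 0, 0 to 0 and 0 to 6, and for cell sheet against sham from 5 to 8, 0 to 7 and 0 to 3. By permutation, these fits called 78.7% to 89.7% (infarct), 80.1% to 91.8% (border) and 75.9% to 85.5% (remote) of all genes for MI against sham. For cell sheet against MI the shares were 0%, 0% and 0% to 64.0%. For cell sheet against sham they were 89.0% to 96.1%, 0% to 66.8% and 0% to 45.7%. The tests of zone differences ranged from 2 to 3 for MI against sham between infarct and remote zones, from 0 to 1 between border and remote zones, and were 0 for the cell sheet. The number of libraries limits the ratio tests, whose smallest p is 0.00216.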
